A study of Mus musculus with 4 samples.

Results

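Retinal ganglion cells are the output neurons of the retina. The genes examined here mark them, 10 in all: the transcription factor genes Pou4f1, Pou4f2, Pou4f3 and Isl1, the RNA-binding protein gene Rbpms, and the axonal and structural genes Sncg, Nefl, Nefm, Gap43 and Thy1. They were chosen as textbook markers, by symbol, with earlier results of these data known. All 10 were found, each once, among the 18471 genes of the count table. All 10 also passed the filter on low counts, which left 17300 genes to test.

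RNA was sequenced from the retinas of mouse embryos at embryonic day 19, with 2 libraries in each group. One group is labelled wild-type, with no strain given for it. The group labelled Foxn3KO has the genotype Foxn3-/- from the line C57BL/6NJ-Foxn3em1(IMPC)Bay/Mmnc and lacks exon 3 of this forkhead transcription factor gene. Each library came from an individual embryo, and the study asks how Foxn3 contributes to a transcriptional network for primary cilia.

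Ganglion cells are the first neurons that the retinal progenitors produce, and around birth their axons already run through the optic nerve to the brain. The proneural factor Atoh7 makes progenitors competent for this fate. Pou4f2 and Isl1 then act together, downstream of it, to switch on genes for axon growth, survival and subtype identity. Neurofilaments, growth-associated proteins and surface glycoproteins are made later or in larger amounts as the axon forms. Because the RNA is from whole retina, fewer ganglion cells and less RNA per ganglion cell cannot be told apart.

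Total counts were 22543531 to 29360129 per library. Foxn3 itself was at 97.6 and 99.8 CPM (counts scaled to the TMM-adjusted library size) under the wild-type label and at 143.6 and 143.7 CPM under the Foxn3KO label. The targeted gene was therefore higher in the group labelled as its knockout, and gene counts do not resolve exon 3, so the groups are named by their labels and every direction below rests on them. Wild-type replicate 1 had 83073 Xist counts and 0 Ddx3y counts, against 9 to 19 Xist counts and 1780 to 2317 Ddx3y counts in the other 3 libraries. Sex and genotype are thus partly mixed, and the values without wild-type replicate 1 compare libraries of a single sex pattern. Lens genes also separated the libraries: the summed level of 6 lens genes was 3.63 and 61.4 CPM in the wild-type libraries and 200.3 and 199 CPM in the Foxn3KO libraries.

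RefSeq promoter sequences were matched for 4 of the 10 genes. Those of Isl1 and Pou4f2 are shown because these factors act as partners, and of the pair only Isl1 passed the test below. Each is the 250 bases before the gene's start in build GRCm38.p6, which is not the build of the counts, at chr13:116309689-116309938 and chr8:78436648-78436897, both on the minus strand and written in the direction of the gene. Capitals mark the box CCAAT, the E-box CAGCTG of the kind that proneural factors bind, and the motif GACGC (the alternative motif that some forkhead factors, FOXN3 among them, are known to bind), on either strand.
Isl1: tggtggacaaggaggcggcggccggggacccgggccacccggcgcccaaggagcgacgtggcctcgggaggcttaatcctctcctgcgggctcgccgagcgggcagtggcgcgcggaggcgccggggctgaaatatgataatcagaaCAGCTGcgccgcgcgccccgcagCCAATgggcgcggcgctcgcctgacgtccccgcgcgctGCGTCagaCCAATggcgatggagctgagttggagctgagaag
Pou4f2: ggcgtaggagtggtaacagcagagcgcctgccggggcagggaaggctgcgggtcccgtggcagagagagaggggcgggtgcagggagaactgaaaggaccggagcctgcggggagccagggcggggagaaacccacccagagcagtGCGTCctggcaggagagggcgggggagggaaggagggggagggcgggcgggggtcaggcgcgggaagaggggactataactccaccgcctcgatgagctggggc

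Both stretches were rich in G and C, at 71.2% for Isl1 and 70.8% for Pou4f2. The Isl1 stretch held 2 CCAAT boxes, 1 E-box and, on the opposite strand, 1 GACGC motif, which reads GCGTC here. In the Pou4f2 stretch there was 1 GACGC motif, also on the opposite strand, and neither of the other motifs. Of 32851 promoter windows of the same length, 22.6% held the GACGC motif, 13% the E-box and 33.8% the CCAAT box, on either strand. The classical forkhead motif GTAAACA, held by 3.17% of the windows, was in neither stretch, and nor was GTTGCC, a core of the site of RFX factors (10.4%). These letters describe the 2 sequences and do not show that a factor binds there.

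Levels were compared between genes with the deposited FPKM values, which are scaled by gene length. The axonal genes Sncg (gamma-synuclein) and Gap43 (a growth cone protein) stood highest, with means over the 4 libraries of 262.4 and 242.4 FPKM. Sncg ranged from 258.2 to 267.4 FPKM and Gap43 from 224.8 to 258.2 FPKM, so the ranges of these neighbours met. Nefl, the light neurofilament chain, followed at 113.1 to 123.3 FPKM, and Nefm, the medium chain, at 35.3 to 42.3 FPKM. By mean FPKM, Sncg ranked 73 and Gap43 80 among the 17300 tested genes.

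The transcription factor genes lay lower. Pou4f1 had 28.9 to 33.3 FPKM, Isl1 20.4 to 24.2 FPKM, Pou4f2 12.99 to 14.83 FPKM and Pou4f3 9.47 to 10.86 FPKM. Thy1, a surface glycoprotein of neurons, had 17.9 to 21.1 FPKM, which overlapped the range of Isl1. Rbpms had 14.3 to 16.9 FPKM and overlapped Pou4f2. The other neighbours in this order had ranges that did not meet. Even Pou4f3, the lowest, was above 66.7% of the tested genes.

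**Figure D1:**
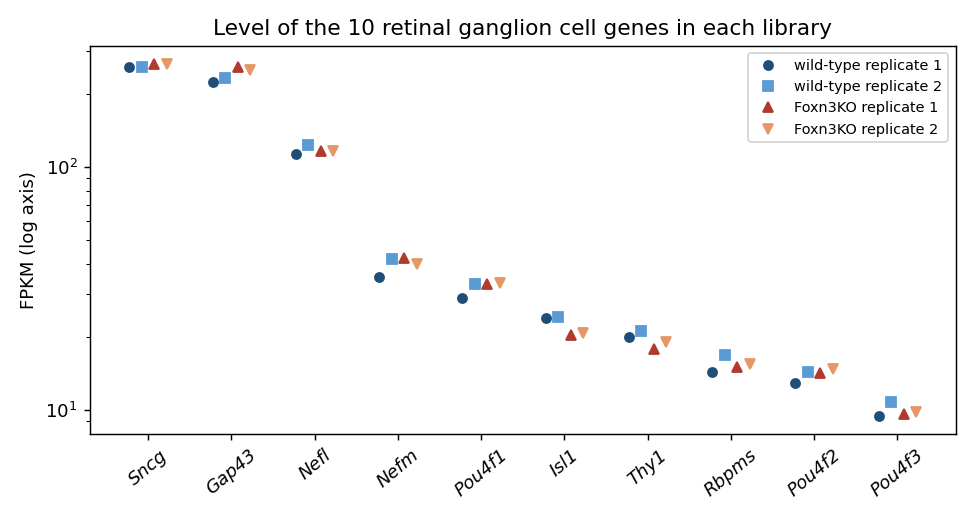
FPKM of the 10 ganglion cell genes on a log axis, in order of their mean, with 1 point for each of the 4 libraries. Sncg and Gap43 lie above 224 FPKM in every library, and the Pou4f genes and Isl1 lie below 34 FPKM.

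All 10 genes were detected in every library, with at least 529 counts. In whole retina this does not show that ganglion cells alone made the RNA. At such counts the counting error alone is small, from 1.06% for Nefl to 4.35% for Pou4f3 in its lowest library. These percentages cover counting error only, and it is not stated whether duplicate reads were removed.

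Between the genotypes, Isl1 fell and Gap43 rose, both by less than 1.2-fold. The other 8 genes did not pass the threshold, an adjusted p under 0.05 by the quasi-likelihood test of edgeR, adjusted by Benjamini-Hochberg across the 17300 genes. Of the 10 genes, 2 passed (20%), against 21.9% of all tested genes, so the share was close to the background. The median log2 fold change (Foxn3KO over wild-type) was 0.01 over the 10 genes and -0.0047 over all tested genes.

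Isl1 encodes a LIM-homeodomain factor that ganglion cells need for their differentiation. Its level was 95.6 and 96.2 CPM in the wild-type libraries and 81.1 and 82.7 CPM in the Foxn3KO libraries. Both Foxn3KO libraries were below both wild-type libraries, and the replicates of each group lay close together. The means were 95.9 ± 0.478 CPM in wild-type and 81.9 ± 1.09 CPM in Foxn3KO (SD, n = 2 each). The log2 fold change was -0.23 (SE 0.049, edgeR adjusted p = 0.00245), or a fold of 0.854. Leaving out any 1 library moved the value only between -0.24 and -0.21, but without Foxn3KO replicate 1 it no longer passed (edgeR adjusted p = 0.0592). In the authors' deposited table the log2 fold change of Isl1 was -0.22 with an adjusted p of 0.00738.

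The fall of Isl1 did not depend on how the libraries were scaled to each other. Within each library, the count of Isl1 was divided by the count of each of the 9 other genes. All 9 ratios were lower in both Foxn3KO libraries than in both wild-type libraries. Against Pou4f2, the FPKM ratio was 1.85 and 1.69 in the wild-type libraries and 1.44 and 1.40 in the Foxn3KO libraries. The 9 ratios share the count of Isl1 and are not separate results. That to Thy1 separated narrowly, at log2 values of 0.663 and 0.599 in wild-type and 0.591 and 0.529 in Foxn3KO. Such ratios also separated for genes that did not pass: Thy1 was lower in 8 of its 9 ratios and Pou4f3 in 5.

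Pou4f1, Pou4f2 and Pou4f3 encode the POU-homeodomain (Brn3) factors, which specify and maintain ganglion cells and their subtypes. Pou4f2, the earliest of the family in this lineage, had 41.8 and 45.97 CPM in the wild-type libraries and 45.7 and 47.6 CPM in the Foxn3KO libraries, so the groups overlapped. Its log2 fold change was 0.09 (95% interval -0.05 to 0.22, edgeR adjusted p = 0.367). Pou4f1 had 135.9 and 154.4 CPM in the wild-type libraries and 155.7 and 156.2 CPM in the Foxn3KO libraries. Only wild-type replicate 1 stood apart, and the groups did not overlap by a narrow margin. The log2 fold change of Pou4f1 was 0.10 (95% interval -0.01 to 0.22, edgeR adjusted p = 0.197). It was 0.20 without wild-type replicate 2, where it passed (edgeR adjusted p = 2.93e-05), and 0.02 without wild-type replicate 1, where it did not (edgeR adjusted p = 0.840).

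Pou4f3, the least abundant of the family, had 22.8 and 26.1 CPM in the wild-type libraries and 23.1 and 23.6 CPM in the Foxn3KO libraries. The Foxn3KO values lay between the wild-type values, with a log2 fold change of -0.07 (95% interval -0.24 to 0.11, edgeR adjusted p = 0.617). The sign of this value turned without wild-type replicate 2 (0.03). Within the family, Pou4f1 had 2.23 to 2.33 times the FPKM of Pou4f2, and this ratio overlapped between the groups. The ratio of Pou4f1 to Pou4f3 was 3.06 and 3.04 in the wild-type libraries and 3.45 and 3.40 in the Foxn3KO libraries. That of Pou4f2 to Pou4f3 was 1.37 and 1.32 in the wild-type libraries and 1.48 and 1.51 in the Foxn3KO libraries. Both ratios to Pou4f3 were thus higher in both Foxn3KO libraries, which was not tested.

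Rbpms encodes an RNA-binding protein that in the retina marks ganglion cells of nearly every subtype. It had 94.5 and 111.1 CPM in the wild-type libraries and 99.3 and 101.6 CPM in the Foxn3KO libraries. The wild-type libraries thus enclosed the Foxn3KO libraries, and the log2 fold change was -0.03 (95% interval -0.17 to 0.10, edgeR adjusted p = 0.748). Rbpms was set by the choice of wild-type library: it was -0.15 without wild-type replicate 1, where it passed (edgeR adjusted p = 0.0103), and 0.09 without wild-type replicate 2, where it did not (edgeR adjusted p = 0.190). Rbpms is also made by smooth muscle and mural cells. Of 7 mural and mesenchymal markers, 5 were tested and 1 was higher (Rgs5), against 12.3% of all tested genes. Their summed level was 20.9 and 26.7 CPM in the wild-type libraries and 26.4 and 26.8 CPM in the Foxn3KO libraries, and their part in the Rbpms values was not tested.

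**Figure D2:**
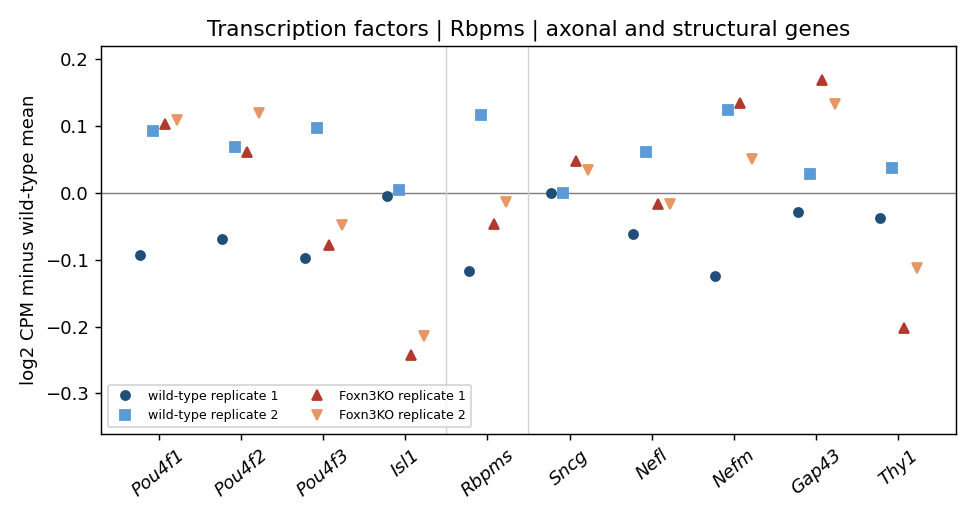
log2 CPM of each ganglion cell gene in each library, minus the mean of the 2 wild-type libraries. Wild-type replicate 1 lies below wild-type replicate 2 for all 10 genes, and both Foxn3KO libraries lie below both wild-type libraries for Isl1 and Thy1.

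Gap43 encodes a membrane protein of growing axon tips. It had 344.1 and 357.9 CPM in the wild-type libraries and 394.4 and 384.9 CPM in the Foxn3KO libraries. Both Foxn3KO libraries were above both wild-type libraries: the means were 351 ± 9.82 CPM in wild-type and 389.7 ± 6.67 CPM in Foxn3KO (SD, n = 2 each). The log2 fold change was 0.15 (SE 0.041, edgeR adjusted p = 0.0139), or a fold of 1.11. The call was lost without Foxn3KO replicate 1 (0.13, edgeR adjusted p = 0.280) and without Foxn3KO replicate 2 (0.17, edgeR adjusted p = 0.131), and held without either wild-type library. In the authors' deposited table the log2 fold change of Gap43 was 0.15 with an adjusted p of 0.0135. Relative to the other members, the count of Gap43 was higher in both Foxn3KO libraries for 6 of 9 ratios and overlapped for 3, those to Pou4f1, Pou4f2 and Nefm.

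Thy1 did not pass the threshold. It had 60.4 and 63.5 CPM in the wild-type libraries and 53.8 and 57.3 CPM in the Foxn3KO libraries, so the groups did not overlap. Its log2 fold change was -0.16 (95% interval -0.28 to -0.04, unadjusted p = 0.0143, edgeR adjusted p = 0.0606). The value passed under total count scaling (-0.18, edgeR adjusted p = 0.0346) and without wild-type replicate 1 (-0.20, edgeR adjusted p = 0.00553). Gap43 over Thy1 was 11.2 and 11.1 in FPKM in the wild-type libraries and 14.4 and 13.2 in the Foxn3KO libraries.

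Sncg was the steadiest of the genes. It had 221 and 221.2 CPM in the wild-type libraries and 228.5 and 226.5 CPM in the Foxn3KO libraries. The groups did not overlap, yet the log2 fold change was only 0.04 (95% interval -0.05 to 0.13, edgeR adjusted p = 0.533).

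The neurofilament genes Nefl and Nefm encode subunits of the axon's intermediate filaments and are neighbours on chromosome 14, on opposite strands. Nefl had 384.1 and 418.1 CPM in the wild-type libraries and 396.2 and 396.1 CPM in the Foxn3KO libraries, with a log2 fold change of -0.02 (95% interval -0.11 to 0.08, edgeR adjusted p = 0.822). Nefm had 205.1 and 243.5 CPM in the wild-type libraries and 245.4 and 231.4 CPM in the Foxn3KO libraries, with a log2 fold change of 0.09 (95% interval -0.04 to 0.22, edgeR adjusted p = 0.345). For both genes the groups overlapped. Without wild-type replicate 2, Nefm passed at 0.22 (edgeR adjusted p = 5.48e-08), and without wild-type replicate 1 it was -0.03 (edgeR adjusted p = 0.658). Nefl also turned sign, to 0.04 without wild-type replicate 2 (edgeR adjusted p = 0.319).

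The values of both neurofilament genes carry a limit from the annotation. In GENCODE M21 (GRCm38) a long gene model of Nefm runs across Nefl, and 1108 exonic bases are shared on opposite strands, 32.8% of those of Nefl and 19.2% of those of Nefm. The exonic length ratio of Nefm to Nefl was 1.71 in that annotation and also 1.71 from the deposited counts and FPKM. The kit keeps strand, but the use of strand in counting is not stated, and without it reads from the shared bases cannot be told apart. None of the other 8 genes shared exonic bases with another annotated gene.

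**Figure D3:**
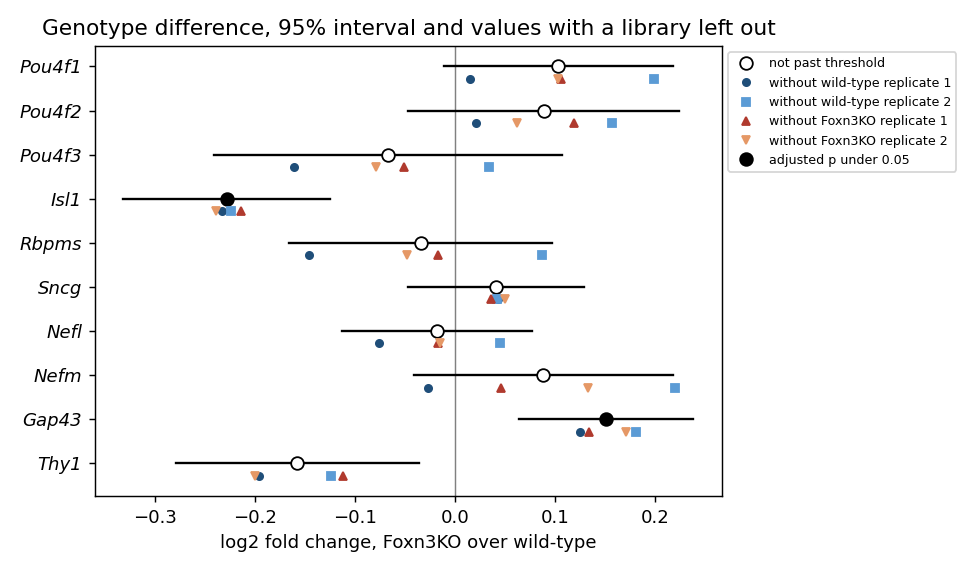
log2 fold change (Foxn3KO over wild-type) of each gene as a circle with its 95% interval from all 4 libraries, filled where the adjusted p is under 0.05, and as small symbols when 1 library is left out. The symbols of Isl1 stay between -0.24 and -0.21, while those of Rbpms, Nefl, Nefm and Pou4f3 fall on both sides of 0.

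Transcription factors and axonal genes were then set side by side. Of the 4 transcription factor genes 0 were higher and 1 was lower, and of the 5 axonal and structural genes 1 was higher and 0 were lower. Over all tested genes 12.3% were higher and 9.66% lower. The median log2 fold change was 0.01 for the transcription factors, with a range of -0.23 to 0.10, and 0.04 for the axonal and structural genes, with a range of -0.16 to 0.15. The ranges overlapped widely, and each group held values of both signs. Both medians changed sign without wild-type replicate 1, to -0.07 for the transcription factors and -0.03 for the axonal genes, and that of the transcription factors also did so under total count scaling (-0.00987) and without Foxn3KO replicate 2 (-0.00845). In these data the split by role therefore did not separate the genes by direction, and the difference between the role groups was not tested, since genes are not replicates.

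The wild-type libraries differed from each other for the whole set. All 10 genes were higher in wild-type replicate 2 than in replicate 1, against 49.5% of all tested genes. The median difference was 0.13 on the log2 scale over the 10 genes and -0.00247 over all tested genes. It was 0.16 for the transcription factors and 0.07 for the axonal and structural genes. The largest differences were those of Nefm (1.19-fold), Rbpms (1.18-fold), Pou4f3 (1.14-fold) and Pou4f1 (1.14-fold), above their counting error. Isl1 and Sncg hardly differed, at 1.01-fold and 1.00-fold. The Foxn3KO replicates had a median difference of 0.02, with 6 of 10 genes higher in replicate 2, against 50% of all tested genes. Differences of both signs cancel in this median. For Isl1, Sncg and Thy1 the Foxn3KO replicates differed more than the wild-type replicates. A mean chi-square per gene measured how far a pair of libraries differed after scaling to their totals. It was 10.1 for the wild-type pair and 1.89 for the Foxn3KO pair. The test pools the spread of both groups.

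For 6 of the 10 genes the difference between the wild-type replicates was larger than the genotype log2 fold change, against 41.4% of all tested genes. Groups did not overlap for 5 of the 10 genes, against 60.4% of all tested genes. Other markers moved with the wild-type difference: the summed level in wild-type replicates 1 and 2 was 3.63 and 61.4 CPM for lens markers, 46.5 and 69.7 CPM for pigment epithelium markers and 29.7 and 77.8 CPM for blood markers. Replicate 1 alone had high Xist. Their part in the ganglion cell values was not tested.

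With a library left out, the number of ganglion cell genes past the threshold followed the library. It was 4 of 10 without wild-type replicate 1 (Isl1, Rbpms and Thy1 lower, Gap43 higher), against 24.3% of all tested genes. It was also 4 of 10 without wild-type replicate 2 (Pou4f1, Nefm and Gap43 higher, Isl1 lower), against 28.6%. Without Foxn3KO replicate 1 it was 0, against 13.1%, and without Foxn3KO replicate 2 it was 1 (Isl1), against 13%. These fits have 3 libraries, and the lone library of a group is assumed to vary like the pair of the other.

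Isl1 is not confined to ganglion cells: cholinergic amacrine cells and bipolar cells make it too. Of 10 amacrine markers 3 were lower (Chat, Gad1 and Tfap2c) and 0 were higher, against 9.66% and 12.3% of all tested genes. Chat, the acetylcholine-synthesizing enzyme of cholinergic amacrine cells, had 3.47 and 3.83 CPM in the wild-type libraries and 1.48 and 1.56 CPM in the Foxn3KO libraries, a log2 fold change of -1.27 (edgeR adjusted p = 0.000479). Its counts were low, 86 and 104 in the wild-type libraries and 43 and 35 in the Foxn3KO libraries. Slc18a3, also a cholinergic gene of this list, did not pass (-0.36, edgeR adjusted p = 0.138). The summed level of the amacrine markers was 602.7 and 648.9 CPM in the wild-type libraries and 632.8 and 619.1 CPM in the Foxn3KO libraries. Of 6 bipolar markers 4 were tested, of which 2 were higher (Trpm1 and Prkca) and 0 lower. Cabp5 (-0.41, edgeR adjusted p = 0.152) and Grik1 (-0.30, edgeR adjusted p = 0.354) did not pass. The median log2 fold change was -0.06. The summed level of the 4 markers was 51.98 and 52.01 CPM in the wild-type libraries and 57.4 and 58.1 CPM in the Foxn3KO libraries. Prkca alone had 34.5 and 33.5 CPM in the wild-type libraries and 37.7 and 39.9 CPM in the Foxn3KO libraries. The defining bipolar genes Vsx1 and Grm6 were not analysed here. The part of these cells in the Isl1 value was not tested.

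Several of the axonal genes are also made by neurons outside the eye, such as those of cranial ganglia. Of 8 markers of peripheral ganglia 4 were tested, with 2 lower, among them Scn9a, and 0 higher. Over all tested genes 9.66% were lower and 12.3% higher. The summed level of the 4 markers was 28.3 and 31.7 CPM in the wild-type libraries and 21.1 and 21.7 CPM in the Foxn3KO libraries. Scn9a alone had 22.1 and 25.4 CPM in the wild-type libraries and 17.3 and 17.5 CPM in the Foxn3KO libraries. Prph and Th did not pass and had low counts, with 11 to 17 for Th. Phox2a, Tlx3 and Scn10a, which mark such neurons, were not analysed here.

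The wider program of ganglion cells was read from 4 further lists with 80 genes, of which 79 were tested. In these lists 19 genes were higher (24.1%) and 7 lower (8.86%) in the Foxn3KO libraries, against the 12.3% and 9.66% of all tested genes. The lists were chosen with earlier results of these data known, so these shares are not independent support for a change. Many of the genes are shared with other young neurons, so they do not measure ganglion cells alone. DESeq2 gave 17 calls in place of 26, and over all tested genes 2437 in place of 3795. Without Foxn3KO replicate 1 there were 8 calls in these lists and without Foxn3KO replicate 2 there were 10. Markers of other retinal cells moved as well. Of 9 retinal progenitor markers 3 were lower (Hes1, Ccnd1 and Fgf15) and 1 higher (Sox2), with a summed level of 5752 and 5980 CPM in the wild-type libraries and 5342 and 5344 CPM in the Foxn3KO libraries. Of 8 photoreceptor markers 3 were higher (Nrl, Nr2e3 and Rcvrn) and 0 lower, with a summed level of 1162 and 1149 CPM against 1171 and 1177 CPM. Of 6 horizontal cell markers 3 were lower (Onecut1, Onecut2 and Prox1) and 2 higher (Tpm3 and Calb1). Their summed level was 352.6 and 359.8 CPM in the wild-type libraries and 380.6 and 381.2 CPM in the Foxn3KO libraries. Tpm3 alone had 168 and 174.8 CPM in the wild-type libraries and 213.8 and 214.9 CPM in the Foxn3KO libraries. The median log2 fold change of the 6 horizontal cell markers was -0.09. The part of these cells in the counts of the lists was not tested.

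Among 27 further transcription factors, 4 were higher (14.8%) and 2 lower (7.41%), close to the 12.3% and 9.66% of all tested genes. The median log2 fold change was 0.03. The SoxC genes Sox4, Sox11 and Sox12 rose together. Sox11 rose from 361.4 and 358.6 to 436.96 and 436.96 CPM, a log2 fold change of 0.28 (edgeR adjusted p = 4.77e-05). Sox12 rose by 0.27 (edgeR adjusted p = 0.000717) and Sox4 by 0.17 (edgeR adjusted p = 0.00552). Ebf3 was the fourth gene that rose. Isl2, a relative of Isl1 that marks a subset of ganglion cells, fell from 34.3 and 31.8 to 27.2 and 29.2 CPM. Its log2 fold change was -0.23 (edgeR adjusted p = 0.0297), and Ebf4 fell by 0.23 (edgeR adjusted p = 0.0422). The calls of Sox11 and Sox12 held with any 1 library left out. Those of Isl2 and Ebf4 were lost under DESeq2 (adjusted p = 0.138 and 0.191) and held only without wild-type replicate 2 when a library was left out, and that of Sox4 was lost without either Foxn3KO library. Atoh7, upstream of the set, had 162.9 and 149.8 CPM in the wild-type libraries and 155.8 and 164.5 CPM in the Foxn3KO libraries, which overlapped.

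Cytoskeletal genes of axons and young neurons were higher in 8 of 18 cases (44.4%), against 12.3% of all tested genes. They were lower in 0, against 9.66%, with a median of 0.14. Their summed level was 6115 and 6799 CPM in the wild-type libraries and 7141 and 7151 CPM in the Foxn3KO libraries. Wild-type replicate 1 stood apart here too: 15 of the 18 genes were higher in wild-type replicate 2, by a median of 0.14 on the log2 scale, as large as the genotype median. Dpysl2, a collapsin response mediator that binds tubulin, rose from 130.98 and 128.6 to 167.4 and 165.2 CPM, a log2 fold change of 0.36 (edgeR adjusted p = 1.03e-05). Tubb3, the neuronal beta-tubulin, rose by 0.31 (edgeR adjusted p = 3.42e-05) and Tagln3 by 0.16 (edgeR adjusted p = 0.0119). Stmn2, Dpysl3, Crmp1, Uchl1 and Marcksl1 were the other genes that rose. Only Dpysl2 and Tubb3 of the 3 genes with values kept their calls with any 1 library left out, and that of Tagln3 was lost without either Foxn3KO library. The count depended on the library left out: it was 7 without wild-type replicate 1, 13 without wild-type replicate 2, and 2 without either Foxn3KO library. Without wild-type replicate 1, 1 gene of this list was called lower. Nefh, the heavy neurofilament chain, had 4.03 and 4.20 CPM in the wild-type libraries and 3.81 and 5.40 CPM in the Foxn3KO libraries.

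Surface and adhesion genes were higher in 4 of 16 cases (25%), against 12.3% of all tested genes. They were lower in 0, against 9.66%, with a median of 0.14. Dcc, the netrin receptor that guides ganglion cell axons into the optic nerve, rose from 53.4 and 58.96 to 78.6 and 76.2 CPM. Its log2 fold change was 0.46 (edgeR adjusted p = 1.24e-05). The axonal adhesion molecules Cntn2 (0.42, edgeR adjusted p = 0.00104) and Chl1 (0.34, edgeR adjusted p = 0.00364) rose as well, and Ncam1 was the fourth. The calls of Dcc and Cntn2 held with any 1 library left out, and that of Chl1 was lost without Foxn3KO replicate 1. Without wild-type replicate 1, 7 genes of this list were called higher and 2 lower, and without Foxn3KO replicate 1, 2 were called higher.

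**Figure D4:**
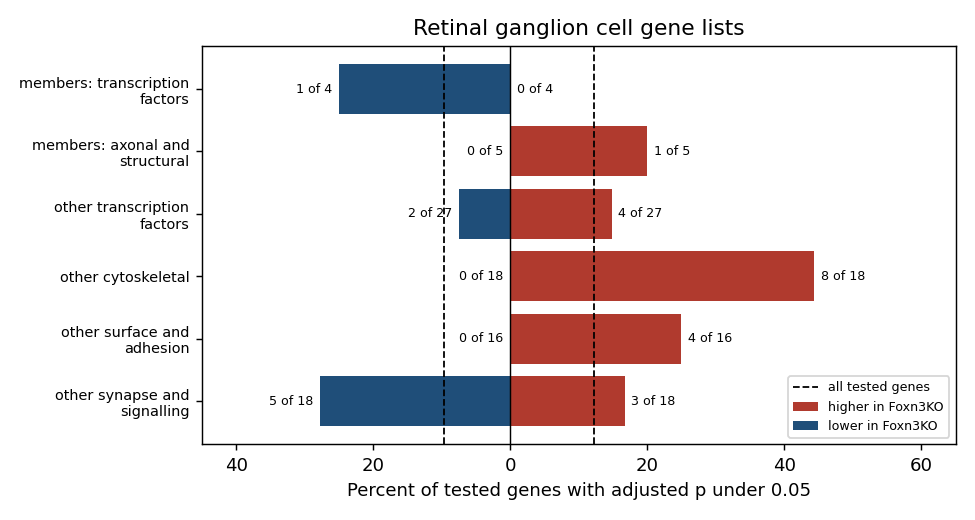
Percent of tested genes with an adjusted p under 0.05 in each list, higher in Foxn3KO to the right and lower to the left, with the share over all tested genes as dashed lines. Cytoskeletal genes (8 of 18) and surface genes (4 of 16) lie above the dashed line for higher genes, and no gene of these 2 lists was called lower with all 4 libraries.

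Synapse, signalling and RNA-binding genes went both ways, with 3 of 18 tested genes higher (16.7%), 5 lower (27.8%) and a median of 0.02. Over all tested genes 12.3% were higher and 9.66% lower. The neuronal RNA-binding genes Elavl3 (0.22, edgeR adjusted p = 0.00345) and Elavl4 (0.21, edgeR adjusted p = 0.00457) rose, as did the neurotrophin receptor Ntrk2 (0.27, edgeR adjusted p = 0.0132). Igf1, a growth factor, fell by 0.23 (edgeR adjusted p = 0.0110) and Elavl2 by 0.18 (edgeR adjusted p = 0.0297). Scn3a and Cartpt fell as well. Of the genes with values in this list, only Elavl3 kept its call with any 1 library left out. Ntrk2, Igf1 and Elavl2 lost theirs under DESeq2 (adjusted p = 0.0664, 0.0616 and 0.132). The vesicular glutamate transporter Slc17a6, through which ganglion cells signal, had 39.1 and 43.6 CPM in the wild-type libraries and 40.1 and 42.2 CPM in the Foxn3KO libraries, and Rbpms2 had 43.1 and 49.1 against 46.1 and 48.98 CPM. Both overlapped between the groups.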

How the data were processed

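RNA was measured in 4 retinal libraries, 2 per genotype, grouped by their labels. Whole-number counts per gene and library, and FPKM values, were taken as the authors deposited them. Build mm39 and DESeq2 are named in the submitters' processing notes; the aligner, counting tool and use of strand and molecular identifiers are not given in the sources used here. The deposited log2 fold changes, their p-values and a mean signal per gene (not used) are the authors' own. Genes under 16 counts in sum were not in the count table read here.

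One repeated identifier was dropped. Genes were filtered with filterByExpr and scaled by TMM. The test was the two-sided quasi-likelihood F test of edgeR 4.0.16 (R 4.3.3) on genotype alone, with Benjamini-Hochberg adjustment over 17300 genes. Nothing in the labels says that embryos came from separate litters, so p-values measure the spread between these 4 embryos. On simulated data with 17045 genes, 29.8% of 47 genes changed 1.2-fold and 79.6% of 49 genes changed 1.5-fold were called, with 9 unchanged genes called. The simulation gave both groups the same spread and held no sex or lens difference, so these rates need not hold for the real libraries. Members and lists were chosen with earlier results of these data known. Named genes were the members, Foxn3, Xist and Ddx3y, and up to 3 genes per list and direction with the smallest p; others were named after their values were seen, and not every gene that the rule selects is reported here. Alternatives were RLE and total count scaling, other filters, DESeq2 1.42.0, limma-voom (limma 3.58.1), the earlier edgeR fit, a replicate block and leaving out each library. Figures were drawn with matplotlib 3.10.9.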

Additional observations from a re-analysis of the deposited data

How the results depend on the processing

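Among the 10 ganglion cell genes, 78 of 80 values under other scalings, filters, tools and the replicate block kept their direction and side of the threshold; the other 2 are those of Thy1, which passed under total count scaling (-0.178, edgeR adjusted p = 0.0346) and with the replicate block (-0.157, edgeR adjusted p = 0.0406). With a library left out, 29 of 40 did, 3 lost the call, 4 gained one and 4 turned sign. The number of these genes past the threshold was 2 under each other setting except total count scaling and the replicate block (3 each), and 0 to 4 with a library left out. Genes past the threshold over all tested genes were 2437 with DESeq2, against 3795, and 2323 to 5067 with a library left out; the cause was not tested. Of the calls, 55.9% were higher in Foxn3KO and 48.2% under total count scaling, which moved the median of all genes to -0.0251. The ganglion cell genes in the 4 further lists gave 17 calls with DESeq2, and 8 to 34 with a library left out. Higher cytoskeletal genes ranged from 2 to 13 and higher surface genes from 2 to 7. Medians ranged from -0.07 to 0.09 for the transcription factors and from -0.0268 to 0.04996 for the axonal genes.

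Values that turned sign with a library left out ranged from -0.161 to 0.0335 for Pou4f3, from -0.146 to 0.0864 for Rbpms, from -0.0764 to 0.0448 for Nefl, from -0.0268 to 0.2196 for Nefm and from -0.0265 to 13.98 for Ddx3y. The lowest of each was without wild-type replicate 1 and the highest without wild-type replicate 2. Nothing pairs samples of the same replicate number: the correlation of the replicate differences of both groups was -0.0141 over 17288 genes. With the replicate block 4222 genes passed, 3 of them ganglion cell genes (Isl1, Gap43 and Thy1), and 30 of the 79 further genes. Precision was lowest for Pou4f3, the gene with the fewest counts (529 in its lowest library, SE 0.082), and an SE of 0.041 was reached for Gap43.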

Other observations

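Genes that neurons induce after axon injury were read because the optic nerve is cut when a retina is dissected. Of 14 genes 13 were tested, 2 were higher in the Foxn3KO libraries (Fos and Sox11) and 0 were lower. The share of higher genes was 15.4%, close to the 12.3% of all tested genes, and 9.66% of all tested genes were lower. Sox11 is also counted among the further transcription factors. The median log2 fold change was 0.12. Fos, an immediate early gene, had 1.05 and 0.81 CPM in the wild-type libraries and 2.06 and 3.48 CPM in the Foxn3KO libraries, a log2 fold change of 1.55 (edgeR adjusted p = 0.00174). These values rest on few counts, 26 and 22 in the wild-type libraries and 60 and 78 in the Foxn3KO libraries. The glial gene Gfap, an astrocyte filament, fell from 32 and 28 CPM to 14.6 and 15.1 CPM, a log2 fold change of -1.02 (edgeR adjusted p = 7.18e-08). Of 6 markers of optic nerve glia 2 were lower (Gfap and Olig2) and 0 higher, against 9.66% and 12.3% of all tested genes.

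Eomes, which marks a class of ganglion cells that includes the photosensitive ones, had 36.5 and 37.4 CPM in the wild-type libraries and 39.7 and 40.9 CPM in the Foxn3KO libraries, and did not pass the threshold. Shh, which ganglion cells secrete to the progenitors, had 8.39 and 9.28 CPM in the wild-type libraries and 9.17 and 10.4 CPM in the Foxn3KO libraries, which overlapped.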
